A study of Zea mays with 6 samples.

Results

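The deposited tables of this maize seedling study hold 174 genes whose identifier begins with GRMZM5G, out of 45855 genes in all. The members were taken by that prefix in the first transcript identifier of each row, and the rule uses no measured value. RNA was sequenced from whole seedlings of maize (Zea mays) at the coleoptile stage, at which the sheath around the first leaves emerges, in 3 wild-type and 3 Fdl1-/- samples. The mutated gene, FDL1 or fused leaves1, codes for a regulator of the MYB family that is needed for a normal cuticle and for the separation of young leaves. The labels used here give the mutant genotype only as Fdl1-/-, with no lesion, inbred background or growth condition, and both groups share tissue, stage, kit and library type. No table used here pairs an identifier with the name FDL1, so the genotype labels were not checked against that gene.

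The GRMZM5G prefix is older than the Zm00001d names that most genes of the tables carry. As background, in public gene sets of this genome build such identifiers are borne by gene models of the mitochondrial and chloroplast genomes. Those genomes are known to encode a small part of the respiratory chain and of the photosynthetic apparatus, together with parts of the ribosomes. The chloroplast genome also encodes parts of an RNA polymerase. Plant organelle genes are largely transcribed as long RNAs across several genes, which are then cut and spliced, and a poly(A) tail in an organelle is known to mark an RNA for decay. Libraries selected for poly(A) therefore sample such RNA only in part. None of the 174 identifiers was matched to a name in the RefSeq gene table at hand, so members are given by identifier and no single gene is given a function or a genome.

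The 174 genes stood together at the end of the deposited gene numbering and were mostly short models. They took gene numbers 45638 to 45855, the last number of the table, and shared that block of 218 numbers with 44 genes whose identifiers begin with ENSRNA and with 0 Zm00001d genes. Of the members, 170 had 1 annotated transcript and 4 had 2. The median length was 477 nt, with a range of 201 to 6595 nt, against a median of 1157 nt for Zm00001d genes. The upper quartile of the members was 1178 nt, and the 10 with the highest mean CPM had 1500 to 6595 nt. Among the members with 1 transcript, 84.1% had a length divisible by 3, against 58.7% of Zm00001d genes with 1 transcript. Of the 10 with the highest mean CPM, 4 had 1 transcript of such a length.

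Model lengths were set against those of organelle genes. The RefSeq table of assembly NAM-5.0 lists 163 protein-coding genes on the mitochondrial genome and 111 on the plastid genome. Of the 170 members with 1 transcript, 99 had exactly the length of a mitochondrial gene, 38 that of a plastid gene and 116 that of at least one of these. That is 68.2% of members, against 17.6% of Zm00001d genes with 1 transcript. Short lengths coincide easily, and among genes of up to 500 nt the shares were 95.7% and 48.5%. Among genes over 500 nt they were 35.9% and 7.63%. These shares were not matched for lengths divisible by 3, which were more common among members. How much of the gap goes with that was not tested. Along the gene numbering the members were cut into 3 runs of 58. Lengths equal to a mitochondrial gene were found for 39 of 56 members with 1 transcript in the first run, 49 of 58 in the second and 11 of 56 in the last, and lengths equal to a plastid gene for 4, 11 and 23. These lengths describe the class and assign no member to a gene.

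Together the GRMZM5G genes took a very small part of the sequenced RNA, in wild type and mutant alike. The 3 wild-type libraries held 16477, 23475 and 21804 expected counts on them (estimated reads, with reads that fit several models divided among those models). The mutant libraries held 18666, 16828 and 31800. As a share of all counts this was 0.0615%, 0.0650% and 0.0669% in wild-type replicates 1, 2 and 3, and 0.0651%, 0.0470% and 0.0951% in mutant replicates 1, 2 and 3. The wild-type libraries lay close together, and the mutant libraries held both the lowest and the highest of the 6. The wild-type mean was 0.0644% ± 0.0027 (SD, n = 3), and the mutant mean was 0.0691% ± 0.0243 (SD, n = 3). Without mutant replicate 3 the mutant mean was 0.0561%, below that of wild type. The whole libraries held 26807205 to 36123679 expected counts. Wild-type replicate 1 stood apart from the other wild-type libraries over all tested genes, with correlations of log-CPM of 0.938 and 0.949, against 0.973 to 0.980 for the other pairs within a group. Nothing in the labels says how seedlings were pooled, beyond the statement of biological replicates. These are whole seedlings, in which fewer cells with such RNA and less of it per cell cannot be told apart.

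Counts were concentrated in a few members and in the last run of the gene order. The last 58 genes of the numbering held 93.1% of all GRMZM5G counts, the first 58 held 3.16% and the middle 58 held 3.72%. The 5 genes with the most counts, ranked by mean CPM over the 6 libraries, lay between gene numbers 45785 and 45802. They held 67.0% to 73.1% of the class in the wild-type libraries and 64.0% to 78.1% in the mutant libraries. The 10 with the most counts held 80.6% ± 2.50 of it across wild-type libraries and 82.4% ± 5.37 across mutant libraries (SD, n = 3). Between 2 and 4 genes sufficed for 50% of the class in a library, and 17 to 30 genes for 90%.

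**Figure D1:**
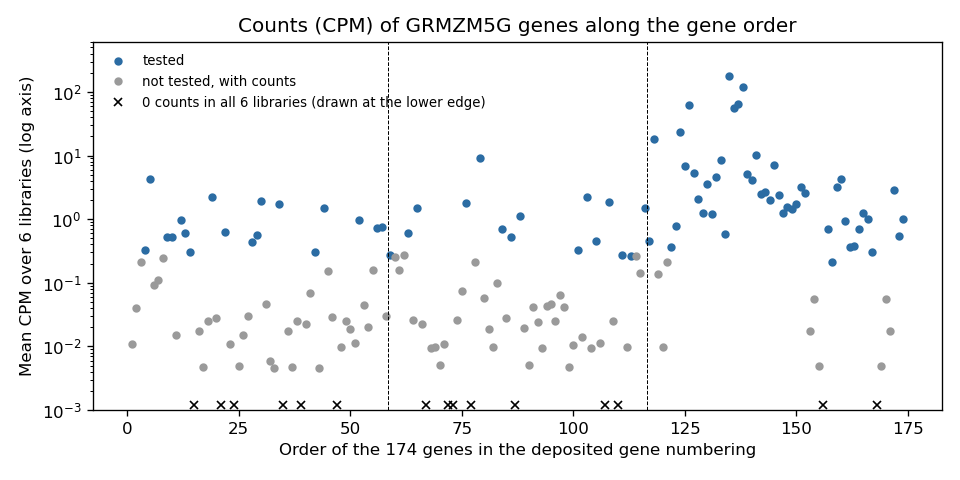
Mean level of each of the 174 GRMZM5G genes over the 6 libraries, in CPM on a log axis, against its place in the deposited gene numbering. Dashed lines part the 3 runs of 58 genes. The 8 genes of at least 10 CPM all lie in the last run, which held 93.1% of the class's counts, and crosses mark the 15 genes with 0 counts in all libraries.

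Many members were at or near the edge of detection. In all, 15 of the 174 had 0 counts in every library, 159 had a count in at least 1 library and 90 in all 6. A single library detected 116 to 135 of them. In CPM, counts put on a common library size with factors from the trimmed mean of M-values (TMM), the limit set by 3 counts was 0.0840 to 0.114 depending on the library, so a member at 0 may still have been expressed below that level. Such floors cover counting error only. A mean of at least 1 CPM was reached by 46 members, at least 10 CPM by 8 and at least 100 CPM by 2. In all, 80 members passed the filter on low counts and were tested, which is 46.0%, against 59.1% of Zm00001d genes. The 94 untested members had means of up to 0.272 CPM and held 0.633% of the counts of the class. Per length, the median over tested members was 2.25 TPM (transcript level per length), against 10.8 TPM for tested Zm00001d genes.

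**Figure D2:**
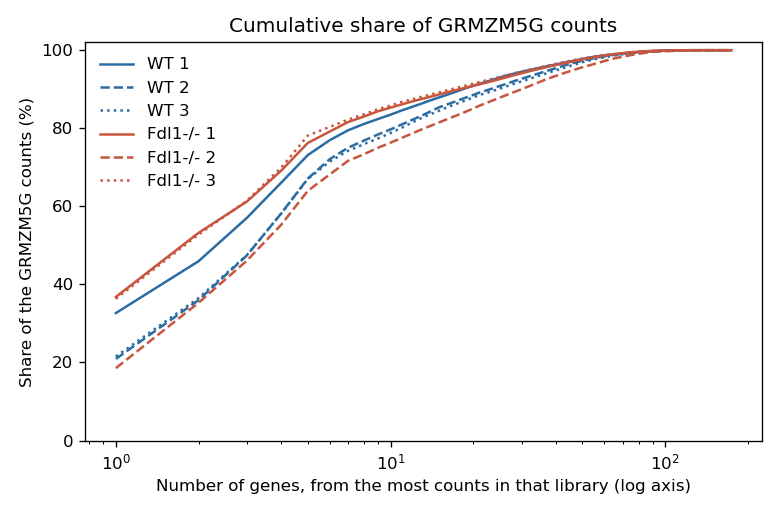
Cumulative share of the GRMZM5G counts of a library, in percent, against the number of genes taken from the most counts down, on a log axis. Each line is 1 library, wild type (WT) in blue and Fdl1-/- in red. Wild-type replicate 1 and mutant replicates 1 and 3 rise most steeply, with 32.7% to 36.8% of the counts on GRMZM5G815453.

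GRMZM5G815453, at gene number 45798 with a model of 1500 nt, had the highest mean of the class both in CPM and per length in TPM, and it varied most in absolute level. Its expression was 205, 100.2 and 98.3 CPM in wild-type replicates 1, 2 and 3, and 239, 78.9 and 339 CPM in mutant replicates 1, 2 and 3. Wild-type replicate 1 and mutant replicates 1 and 3 were thus high, the other 3 libraries were low, and the groups overlapped. The highest library exceeded the lowest 4.29-fold. The gene held 32.7%, 15.1% and 14.97% of the class in the wild-type libraries, and 36.8%, 16.7% and 36.3% in the mutant libraries. On the scale of TPM it ran from 73.5 to 322, and its rank among all genes moved from 2452 in mutant replicate 2 to 438 in mutant replicate 3. On the log2 scale Fdl1-/- exceeded wild type by 0.70 (SE 0.53, 95% interval -0.53 to 1.94), and edgeR's quasi-likelihood test gave an adjusted p of 0.618. Single libraries moved this log2 fold change, to 0.24 without mutant replicate 3, 1.10 without mutant replicate 2 and 1.14 without wild-type replicate 1.

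**Figure D3:**
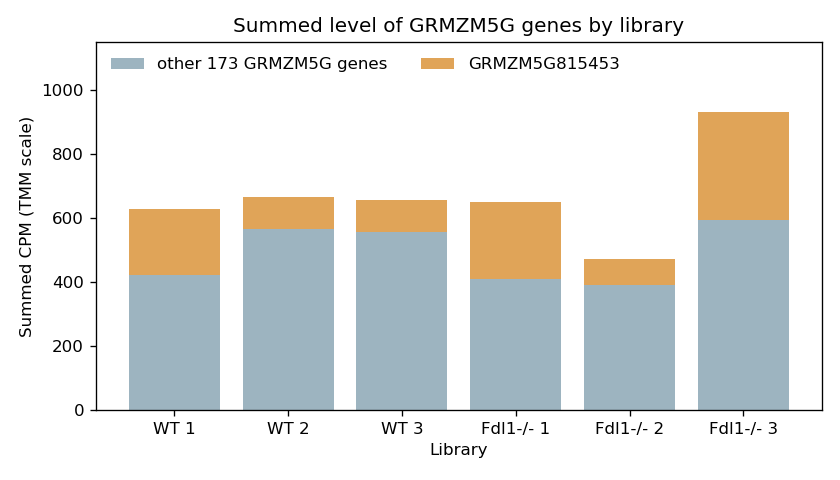
Summed level of the GRMZM5G genes in each library, in CPM, with GRMZM5G815453 in orange on top of the other 173 genes in grey-blue. The orange part is large in wild-type (WT) replicate 1 and in mutant replicates 1 and 3, and the grey-blue part is large in wild-type replicates 2 and 3 and mutant replicate 3.

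The other members followed another order of libraries. Without GRMZM5G815453 the class summed to 422, 565 and 558 CPM in wild-type replicates 1, 2 and 3 and to 411, 392 and 593 CPM in mutant replicates 1, 2 and 3. Wild-type replicates 2 and 3 and mutant replicate 3 were high here, so wild-type replicate 1 and mutant replicate 1 were high for the leading gene and low for the rest. The 44 ENSRNA genes within the same block of gene numbers took 0.0140%, 0.0098% and 0.0116% of counts in wild type and 0.0079%, 0.0057% and 0.0139% in the mutant, and 2 of them held 95.9% of these. They were highest in wild-type replicate 1 and mutant replicate 3.

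Among the 46 members with a mean of at least 1 CPM, the libraries differed as a whole. The median ratio of a library's level to the gene's own mean was 0.866, 1.08 and 1.14 in wild-type replicates 1, 2 and 3 and 0.840, 0.854 and 1.12 in mutant replicates 1, 2 and 3. Over all tested genes, with no lower limit on CPM, this ratio lay between 0.973 and 0.992. TMM scaling itself brings the typical gene to a similar level in all libraries. Wild-type replicate 1 was the lowest wild-type library for 41 of the 46 members, or 89.1%, against 40.3% of all tested genes of at least 1 CPM. Mutant replicate 3 was the highest mutant library for 39 of them, or 84.8%, against 37.3%. Members were thus high or low together among libraries of a single genotype. They share library and depth scaling, so these counts are a description without a test. Whether the seedlings, the RNA or the poly(A) selection of these libraries differed was not tested.

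The 4 genes that ranked next after GRMZM5G815453 were steadier. GRMZM5G804708, a model of 3893 nt at gene number 45802, was at 83.3, 139 and 141 CPM in wild type and at 107, 87.4 and 153 CPM in Fdl1-/-. Its group ranges overlapped almost completely, and edgeR gave a log2 fold change of -0.067 (SE 0.27, 95% interval -0.70 to 0.57; adjusted p 0.945). The sign of this value turned when wild-type replicate 2 or 3 or mutant replicate 2 was left out. GRMZM5G801958, a model of 1882 nt at gene number 45800, was at 69.6, 76.2 and 69.8 CPM in wild type and at 46.1, 40.9 and 80.8 CPM in the mutant. Mutant replicates 1 and 2 lay below every wild-type library and mutant replicate 3 above them all, so the coefficient of variation was 5.22% in wild type and 38.7% in the mutant.

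GRMZM5G856777 had the longest model of the class, 6595 nt, and lay at gene number 45785. Its level was 56.6, 71.5 and 72.3 CPM in wild type and 52.2, 50.9 and 76.5 CPM in the mutant. GRMZM5G831540, of 3254 nt at gene number 45799, was at 44.3, 59.4 and 58.3 CPM in wild type and at 51.5, 43.3 and 79.0 CPM in the mutant. For both genes the groups overlapped, and mutant replicate 3 was the highest library. In edgeR their log2 fold changes were -0.16 (SE 0.19; adjusted p 0.782) and 0.10 (SE 0.24; adjusted p 0.905). Leaving out 1 library moved the first value to between -0.38, without mutant replicate 3, and -0.056, without mutant replicate 2, and the second to between -0.19 and 0.27.

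GRMZM5G836994, a model of 1635 nt at gene number 45783, was the only one of the 10 highest-count members whose libraries did not overlap between the groups. It was at 23.7, 32.8 and 28.9 CPM in wild type and at 15.9, 16.5 and 20.7 CPM in Fdl1-/-, so every mutant library was lower. Wild type averaged 28.5 ± 4.53 CPM, and the mutant averaged 17.7 ± 2.64 CPM (SD, n = 3). The difference was -0.68 on the log2 scale (SE 0.17, 95% interval -1.08 to -0.29), and its adjusted p of 0.0899 in edgeR missed the threshold of 0.05. Over the alternatives tried its adjusted p ran from 0.0174 to 0.345. It was under 0.05 with DESeq2, at 0.0174, and in edgeR without wild-type replicate 1, at 0.0499, and it was 0.108 to 0.345 in edgeR without any 1 of the other libraries. On log2(TPM + 1) and log2(TPM + 0.1) limma gave an adjusted p of 0.172 and 0.169.

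The remaining 4 of the 10 averaged 8.37 to 18.3 CPM. GRMZM5G862955, of 2408 nt on average over its 2 transcripts and at gene number 45776, was the steadiest of the 10, at 16.0, 19.7 and 18.2 CPM in wild type and 18.8, 19.6 and 17.4 CPM in the mutant. The highest of its 6 libraries exceeded the lowest 1.23-fold, and the genotypes differed by 0.048 on the log2 scale (SE 0.13, 95% interval -0.26 to 0.36). GRMZM5G808939 averaged 10.7 ± 0.646 CPM across wild-type libraries, against 9.55 ± 2.25 CPM across mutant libraries (SD, n = 3). For GRMZM5G800101 these means were 8.19 ± 1.04 and 9.97 ± 2.43 CPM (SD, n = 3). GRMZM5G800101, at gene number 45730, was the only one of the 10 outside the last run of the gene order. For GRMZM5G800980 they were 9.89 ± 2.16 and 6.85 ± 1.46 CPM (SD, n = 3; edgeR adjusted p 0.353). The adjusted p of the 10 genes in edgeR ran from 0.0899 to 0.945, with 4 log2 fold changes above 0 and 6 below.

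**Figure D4:**
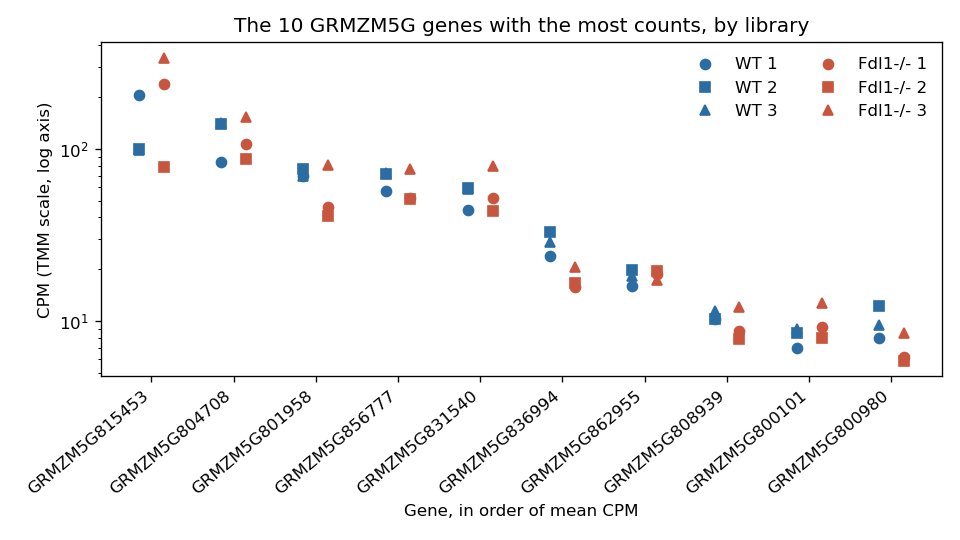
The 10 GRMZM5G genes with the most counts in each library, in CPM on a log axis, wild type (WT) in blue and Fdl1-/- in red, with a symbol for each replicate number. Only GRMZM5G836994 has all red points below all blue points, and GRMZM5G815453 has the widest spread, from 78.9 to 339 CPM.

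Ranks changed when levels were taken per length. GRMZM5G815453 averaged 164 TPM over the 6 libraries, GRMZM5G801958 averaged 47.0 TPM, GRMZM5G801074 averaged 45.5 TPM, GRMZM5G804708 averaged 41.8 TPM and GRMZM5G831540 averaged 23.6 TPM. GRMZM5G801074, whose model of 201 nt at gene number 45803 is the shortest of the class, ranked 14 by CPM and 3 by TPM. It was at 44.2, 62.8 and 55.6 TPM in wild type and at 25.8, 35.7 and 48.9 TPM in Fdl1-/-, with mutant replicate 3 inside the wild-type range. In edgeR it gave a log2 fold change of -0.59 (SE 0.28, 95% interval -1.24 to 0.07; edgeR adjusted p 0.381). By TPM the 10 genes ranked highest by CPM held 54.4% ± 6.01 of the class across wild-type libraries, and 60.1% ± 10.7 across mutant ones (SD, n = 3). Estimated levels of models this short rest on few positions, and they are uncertain where reads were divided with longer models.

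Reads were divided between models for most of the high-count members. Of the 10 genes with the most counts, 8 had a whole expected count, within 0.005, in none of the 6 libraries, and 0 had one in all 6. How large a part of their reads was divided cannot be read from this. Among the 80 tested members 38.8% had whole counts in all libraries, against 31.7% of all tested genes. There were 8 pairs of members with equal length and equal counts in all 6 libraries. Within such a pair the estimate gives each gene the same value, and the copies cannot be told apart. The pair with the most counts, GRMZM5G838963 and GRMZM5G859187 of 735 nt, had 11.5, 16 and 21.5 counts in wild type and 12.5, 16 and 11 in the mutant, and it is the 1 pair of the 8 that was tested.

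Some members were at 0 in some libraries beside clear counts in others, in either genotype. GRMZM5G815606, a model of 513 nt at gene number 45804, next to GRMZM5G801074 and GRMZM5G808939, had 105, 249 and 192 counts in wild type and 0, 116 and 152 in mutant replicates 1, 2 and 3. Mutant replicate 1 alone gave it the largest within-group coefficient of variation among members of at least 1 CPM, 89.7%. The mutant differed by -1.12 on the log2 scale (SE 1.08, 95% interval -3.67 to 1.43), and it was -0.54 without mutant replicate 1. GRMZM5G808402, at gene number 45797 beside GRMZM5G815453, had 8.19, 49.4 and 48.2 counts in wild type and 0, 11.5 and 0 in the mutant. In edgeR its adjusted p was 0.250, and mutant replicate 2 lay above wild-type replicate 1 on the scale of CPM. GRMZM5G849223 had 4, 9.75 and 13 counts in wild type and 0, 27 and 12.25 in the mutant, with a log2 fold change of 0.43 (SE 1.02). GRMZM5G881135, which was not tested, had its 0 in wild type. It had 6.51, 0 and 7.95 counts there and 4.8, 17.03 and 12.93 in the mutant. A 0 in these tables can be an outcome of how shared reads were divided, and whether it was so for these genes was not tested.

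At 1 CPM or more, the members' median replicate spread was near that of all tested genes in wild type and wider in the mutant. Among the 46 members with a mean of at least 1 CPM the median coefficient of variation was 18.0% in wild type and 18.5% in Fdl1-/-. Over all tested genes at that level it was 16.8% and 10.8%. The widest wild-type spreads were those of GRMZM5G851130, GRMZM5G815453 and GRMZM5G867512, with 47.6%, 45.4% and 38.0%. GRMZM5G851130 was at 0.990, 2.83 and 1.99 CPM and GRMZM5G867512 at 0.800, 1.81 and 1.42 CPM in wild-type replicates 1, 2 and 3. Both were lowest in wild-type replicate 1, and both had whole counts in all 6 libraries. In the mutant, GRMZM5G815606, GRMZM5G815453 and GRMZM5G858556 varied most, with 89.7%, 59.9% and 44.9%. GRMZM5G858556 was at 1.27, 1.96 and 3.16 CPM in mutant replicates 1, 2 and 3.

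Between the genotypes, 1 of the 80 tested GRMZM5G genes passed the test, in a comparison that asks which genes differ between Fdl1-/- and wild-type seedlings. With edgeR's quasi-likelihood test over 26098 genes and a Benjamini-Hochberg adjusted p under 0.05, 1 member was higher and 0 were lower in the mutant. Of all tested genes 2.68% were called, 1.68% higher and 0.996% lower, so this count gives no result about the class. An unadjusted p under 0.05 was found for 5 of the 80 members, or 6.25%, against 15.8% of all tested genes. Of the 80 members, 1 was higher at that p and 4 were lower, beside 7.74% and 8.07% of all tested genes. For 10 of the 80 all mutant libraries lay on 1 side of all wild-type libraries, which is 12.5% against 21.9% of all tested genes. Of the 80, 4 lay higher in this way and 6 lower, beside 10.7% and 11.2% of all tested genes. DESeq2 called 2 members, where it called 7.65% of all tested genes, and limma-voom called 1, where it called 2.76%.

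The log2 fold changes of the tested members centred near 0. Their median log2 fold change was -0.017, against -0.033 for all tested genes, with 39 members above 0 and 41 below. The median moved to either side of 0 with the library left out, from -0.17 without mutant replicate 3 to 0.10 without mutant replicate 1. The middle 50% of members lay between -0.31 and 0.24, and that of all tested genes between -0.27 and 0.17. A log2 fold change of less than 1 in size was found for 76 of the 80. For 43 of the 46 members of at least 1 CPM the difference between the group means was smaller than the wider of both within-group ranges, which is 93.5% against 87.1% of all tested genes at that level.

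**Figure D5:**
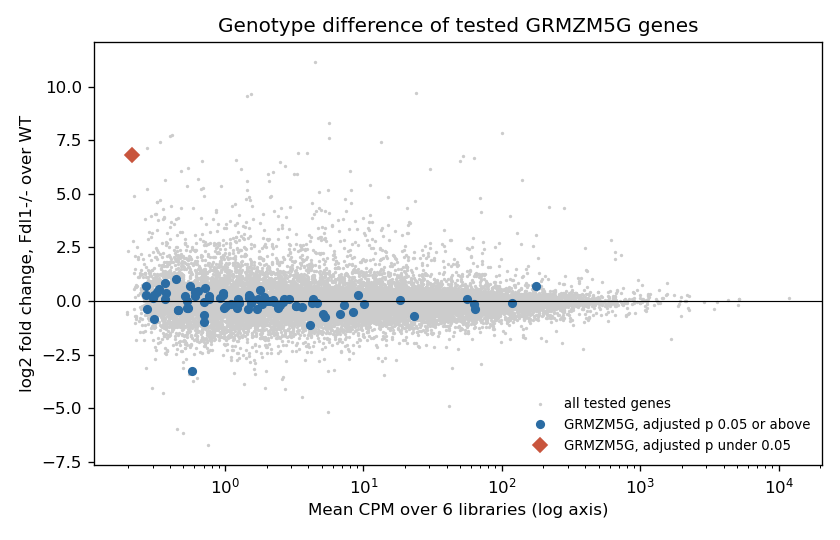
log2 fold change of Fdl1-/- over wild type (WT) against the mean level in CPM on a log axis, for all tested genes in grey and the 80 tested GRMZM5G genes in colour. The 1 member with an adjusted p under 0.05, GRMZM5G806488, lies at the lower end of the levels tested.

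GRMZM5G806488 was the member called higher in Fdl1-/-, from low counts. This model of 2082 nt at gene number 45826 had 0 counts in each wild-type library and 17.9, 12.7 and 10.5 counts in mutant replicates 1, 2 and 3. The mutant level was 0.428 ± 0.169 CPM (SD, n = 3). That mean is 4.44-fold the mean wild-type limit set by 3 counts, 0.0965 CPM. It is a ratio of means and no lower bound on the difference, since the limit covers counting error only. With 0 counts in wild type, the gene passed the filter on low counts only through the mutant libraries, where it was high. Its adjusted p of 0.0447 in edgeR is therefore given as a description. The fitted log2 fold change of 6.82 depends on the prior count and is no measure of size. The expected counts were fractional in all 3 mutant libraries, so reads were shared with another model. When any 1 library was left out the adjusted p in edgeR was 0.0532 to 0.171, and on log2(TPM + 1) and log2(TPM + 0.1) limma gave 0.199 and 0.0533. A filter of 1 CPM in 3 libraries left the gene untested. The call thus did not hold under these settings. With the 4 other scalings and with no filter on low counts, its adjusted p in edgeR was 0.0420 to 0.0455. DESeq2 gave 0.00549 and limma-voom 0.0108. These values rest on the same low counts and are a description as well.

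The other members with an unadjusted p under 0.05 were GRMZM5G836994, GRMZM5G811749, GRMZM5G813608 and GRMZM5G808402, named here after their values were seen. None of these 4 passed the adjusted threshold in edgeR, and all had lower means in the mutant. GRMZM5G811749, at gene number 45784, was at 6.84, 8.66 and 8.79 CPM in wild type and at 4.94, 5.45 and 5.80 CPM in Fdl1-/-. GRMZM5G813608, at gene number 45788, was at 5.20, 6.86 and 7.79 CPM in wild type and at 3.48, 3.81 and 4.67 CPM in the mutant. For both, as for GRMZM5G836994 at the neighbouring number 45783, every mutant library was below every wild-type library. The log2 fold changes were -0.59 (SE 0.19, 95% interval -1.03 to -0.14) and -0.73 (SE 0.24, 95% interval -1.30 to -0.17), and edgeR gave adjusted p of 0.185 and 0.186. All 3 had fractional counts in every library, so RSEM divided some of their reads between models. How much of each value depends on that was not tested, and the 3 may not be independent of each other.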

How the data were processed

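The samples were 3 wild-type and 3 Fdl1-/- seedling samples, and libraries were made from poly(A) RNA with a stranded TruSeq kit, per the labels' protocols. The submitters' processing notes name Bowtie2, RSEM, DESeq2 and limma, with no role or version, and the build B73 RefGen_v4. Columns are those of RSEM's gene output, per the file headers. Expected counts as deposited are estimates in which shared reads are divided. TPM as deposited is relative to transcript length and to the library. FPKM, also deposited, entered no result.

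Rounded expected counts of all genes were fitted with edgeR 4.0.16 in R 4.3.3. Genes were kept by filterByExpr (minimum count 10, minimum total 15). TMM scaling and a two-sided quasi-likelihood test followed, with p adjusted by Benjamini-Hochberg at 0.05 and no replicate block. Levels in CPM used unrounded counts on the TMM scale, and correlations used log-CPM with prior count 2. An SE is the log2 fold change divided by the root of F, and 95% intervals used edgeR's degrees of freedom. A p-value sets the difference between the genotypes against the spread between these samples, as each model estimates it. The fit was first tested on simulated counts. Other scalings, filters and thresholds were tried, as were DESeq2 1.42.0, limma 3.58.1 (voom, and log2 TPM with pseudocounts 1 and 0.1), a fit with a replicate block, and fits without each library.

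Members and rules were chosen with earlier results of these data known. The length comparison, the 3 runs of the gene order and the ratios by library were chosen after the data were seen. Named genes were the 10 highest by CPM, called genes (at most 2 each way), the 3 highest by TPM, and the 3 of widest spread per group among tested members of at least 1 CPM. Sequences of the members were not used here.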

Additional observations from a re-analysis of the deposited data

How the results depend on the processing

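Of the tested GRMZM5G genes, 1 was called under the 4 other scalings, with limma-voom and with no filter on low counts. It was 2 (1 higher, 1 lower) with DESeq2 and at an adjusted p under 0.1, and 0 at an adjusted p under 0.01, with limma on TPM with either pseudocount, when 1 CPM was required in 3 libraries (a rule under which the called gene is not tested) and with a replicate block. Leaving out 1 library gave 0 to 1, and the 1, without wild-type replicate 1, was GRMZM5G836994 and not GRMZM5G806488. Over all genes 699 were called, 1997 with DESeq2, 121 and 1428 at adjusted p under 0.01 and 0.1, and 128 to 837 without single libraries. The low values were 149 without wild-type replicate 2, and 128, 184 and 193 without mutant replicates 1, 2 and 3 in turn. A replicate block left 122, and gave GRMZM5G806488 an adjusted p of 0.213 in edgeR. Deviations from the group means correlated at -0.22, 0.13 and -0.18 between samples of the same number, so the numbers were not taken to pair them. Without wild-type replicates 1 and 3 the counts were 757 and 837, although those fits had equally few samples. The causes were not tested.

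The share of counts on GRMZM5G genes in wild type was 0.0562% as a share of TPM and 0.0512% without GRMZM5G815453. In the mutant these were 0.0596% and 0.0470%, so without that gene the mutant mean was the lower one. The wild-type share was 0.0632% to 0.0659% when 1 wild-type library was left out. The mutant share was 0.0561% to 0.0801% when 1 mutant library was left out. The 10 genes with the most counts held 54.4% and 60.1% of the class by TPM, and 79.2% to 81.6% and 80.8% to 85.5% of its counts when 1 library was left out. Signs turned for values near 0. Leaving out 1 library moved the log2 fold change of GRMZM5G804708 from -0.32 to 0.10, of GRMZM5G831540 from -0.19 to 0.27, of GRMZM5G862955 from -0.031 to 0.12 and of GRMZM5G851130 from -0.46 to 0.23, and on log2(TPM + 0.1) the last was 6.0e-05. None of these passed the threshold in edgeR. The class is described least well at low levels, since the counts of 94 of 174 members were too low to test.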
